A study of Mus musculus with 35 samples.

Results

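At 3 weeks of age, livers that lacked both E2f7 and E2f8 were compared directly with livers that lacked E2f8 alone, which asks what the loss of E2f7 adds once E2f8 is gone. The arrays were chosen by their labels, 4 of the E2f7/E2f8 knockout and 4 of the E2f8 knockout, 8 of the 35 arrays in the series. The E2f7/E2f8 knockout carried Albumin-Cre with loxP-flanked (loxp/loxp) alleles of both genes, and the E2f8 knockout carried Albumin-Cre with E2f8 loxp/loxp alleles. Both were on the FVB background, so that Cre and the deletion of E2f8 were common to the 2 groups. Other FVB groups of the same age served as references, 4 arrays of Albumin-Cre E2f7 loxp/loxp livers and 3 of wild-type controls, and the same pair of knockouts at 2 months (4 arrays each) provided a second look at the contrast. Albumin-Cre is active in hepatocytes, so other liver cells keep the floxed genes while their RNA is part of the sample. Nothing in the labels ties an array to its own animal or says whether animals were pooled, so p-values measure the spread between these samples.

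E2F proteins are transcription factors that switch genes of DNA synthesis and cell division on or off. E2F7 and E2F8 are the atypical members, which bind DNA without a DP partner and repress those genes, and they overlap in function. In the liver they are known for promoting the formation of polyploid hepatocytes around weaning, by holding down genes needed to complete cell division.

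Signals are log2 values of 18193 genes, each represented by 1 probe set. Across genes, the 8 arrays correlated at 0.992 to 0.997 with each other. RNA degradation was gauged by the 3' minus 5' signal of control Gapdh, which was 1.74 to 1.89 log2 in the E2f7/E2f8 knockout and 1.75 to 2.08 in the E2f8 knockout (exact permutation test, two-sided, p = 0.286, with a smallest possible p of 0.0286). Hepatocyte genes had a mean signal per array of 12.18 to 12.24 in the E2f7/E2f8 knockout and 12.22 to 12.32 in the E2f8 knockout. Y-linked Eif2s3y was present on all 8 arrays, at 7.72 to 8.09 log2.

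The targeted genes came first. E2f7 stood at 4.31, 4.85, 4.62 and 4.66 log2 on the E2f7/E2f8 knockout arrays and at 4.88, 5.29, 5.09 and 5.12 on the E2f8 knockout arrays. The groups did not overlap, but the difference of -0.49 (SE 0.14) was not called (limma adjusted p = 0.110). Wild-type arrays read 4.62 to 4.89 and E2f7 knockout arrays 4.69 to 4.85, so that the E2f7/E2f8 knockout overlapped the wild type, the E2f8 knockout was the high group apart from 1 array that lay within the wild-type range, and the E2f7 knockout was not below the wild type. E2f8 read 8.73 ± 0.59 (SD, n = 4) in the E2f7/E2f8 knockout and 8.95 ± 0.24 in the E2f8 knockout, a difference of -0.22 (SE 0.32, adjusted p = 0.810). Wild-type arrays read 6.45 to 7.79, below every array of both knockouts, so the signal of this probe set runs against the deletion of E2f8 that the labels give. Gm2788, a transcript that overlaps E2f8, lay between 5.47 and 5.98 on all 8 arrays, against a mean of 9.45 ± 0.40 (SD, n = 3) in the wild type. The exons behind these probe sets were not analysed here, and a probe set that misses the deleted exons cannot test a label, so the groups are named by their labels. The other members, E2f1 to E2f6, differed by -0.09 to 0.23, and none of the 6 was called.

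Between the 2 groups 126 genes were called, 68 higher and 58 lower in the E2f7/E2f8 knockout than in the E2f8 knockout (limma adjusted p under 0.05). That is 0.693% of all genes, 0.374% higher and 0.319% lower. Most differences were small, with a median size of 0.41 log2 and 75 of the 126 under 0.5. Past 1 log2 there were 3 rises and 7 falls. On 106 of the 126 genes the 4 arrays of one group all lay beyond the 4 of the other, 55 higher and 51 lower, against 6.51% of all genes (3.73% higher and 2.78% lower). The median gene differed by 0.01, and 2372 genes (13%) had an unadjusted p under 0.05.

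The fit took each gene's spread from arrays of both ages. Residual variance was larger at 3 weeks for 71.5% of genes (median 0.0191 against 0.0117 in the 2-month run of these knockouts), and with only the 15 arrays of 3 weeks in the fit 41 genes were called, 33 of them among the 126. Without E2f8 knockout replicate 2 or 3 the count was 192 or 61, and without E2f7/E2f8 knockout replicate 1, 2 or 3 it was 77, 69 or 63. Quantile normalization of all arrays gave 74 rises and 39 falls, and leaving out the dimmest 40% of genes gave 37 rises and 50 falls. The 30 genes described next, 15 in each direction, were chosen among those also called with the 3-week arrays alone. Of these 30 genes 20 kept their calls in each of the 8 fits that left out 1 array. Without the term for the run 9 lost their calls, namely Gstt2, Tgfbr2, Kmo, Shmt2, Gdpd3, Erdr1, Mad2l2, Cd9 and Cbs, with adjusted p up to 0.461. With only the 2 groups in the fit 14 lost them, namely B4galnt1, Npl, Gstt2, Tgfbr2, Plce1, Kmo, Shmt2, Erdr1, Tspyl4, Mad2l2, Cd9, Cbs, Dpp9 and Fam210b, with adjusted p up to 0.188. Erdr1 and Cd9 also lost theirs with quantile normalization, Dusp23 and Erdr1 with array weights, and Ak4, Erdr1 and Tspyl4 in the mean of their probe sets. Trhde, Pcdh17, Npl and Mndal were among the dimmest 40% of genes, so the fit without those genes did not test them.

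Trhde, which encodes a membrane peptidase that degrades thyrotropin-releasing hormone, had the smallest p-value of the comparison. Its signal was 4.55, 4.70, 4.68 and 4.48 log2 in the E2f7/E2f8 knockout and 2.70, 2.27, 2.32 and 2.37 in the E2f8 knockout, a 4.56-fold rise (2.19 log2, SE 0.19, adjusted p = 4.35e-08). All 4 arrays of the E2f7/E2f8 knockout lay within the wild-type range of 4.02 to 4.90. The E2f8 knockout arrays were the low ones.

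B4galnt1, the synthase that makes the gangliosides GM2 and GD2, had the largest rise, 13.2-fold (3.73 log2, SE 0.62, adjusted p = 0.00209). It read 8.78, 8.73, 8.84 and 9.07 in the E2f7/E2f8 knockout. In the E2f8 knockout it read 4.05, 3.88 and 4.58 on replicates 2 to 4, but 7.99 on replicate 1. That array lay apart from its group and still below every E2f7/E2f8 knockout array. Wild-type and E2f7 knockout arrays lay between 8.26 and 9.41, at the level of the E2f7/E2f8 knockout. A second, dimmer probe set of B4galnt1 differed by 0.40 (adjusted p = 0.0753 over all probe sets).

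Pcdh17, a protocadherin of cell adhesion, was raised in the E2f7/E2f8 knockout above all other groups of this age. Its signal was 4.46, 4.50, 4.53 and 4.47 there and 3.63, 3.36, 3.46 and 3.41 in the E2f8 knockout (1.02 log2, SE 0.12, adjusted p = 6.66e-06). The highest array of the wild type was at 3.86 and the highest of the E2f7 knockout at 4.14. Its second probe set also rose, by 0.61.

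Npl, the lyase that breaks down sialic acid, rose by 0.94 (SE 0.16, adjusted p = 0.00289), from 4.90, 5.00, 4.66 and 4.72 to 5.90, 5.63, 6.16 and 5.34. Gys2, the glycogen synthase of the liver, rose by 0.74 (SE 0.11, adjusted p = 0.000597), from 9.47, 9.59, 9.51 and 9.46 to 10.37, 10.52, 10.03 and 10.09. For both genes the E2f8 knockout arrays lay below every wild-type array. Gstt2, a glutathione transferase, rose by 0.78 (SE 0.15), with 9.86 to 10.33 in the E2f7/E2f8 knockout and 9.03 to 9.82 in the E2f8 knockout. Its E2f7 knockout arrays, at 9.21 to 9.54, lay with the low group.

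The other named rises included 5 enzymes and 1 carrier. Ak4, a mitochondrial adenylate kinase, rose by 0.78 (SE 0.11), although its call was lost in the mean of its probe sets (adjusted p = 0.168). Slc25a4, the ADP/ATP carrier of the inner mitochondrial membrane, rose by 0.74 (SE 0.12), as did 2 of its 3 other probe sets. Aldoc, an aldolase of glycolysis, rose by 0.74 (SE 0.14). Gamt, which completes creatine synthesis, rose by 0.50 (SE 0.09). Kmo, which hydroxylates kynurenine in tryptophan breakdown, rose by 0.53 (SE 0.11), and Shmt2, which takes carbon units from serine in mitochondria, by 0.37 (SE 0.09). The call of Shmt2 held in only 1 of the 8 fits without single arrays, that without E2f8 knockout replicate 3 (adjusted p up to 0.122). That of Kmo was lost without E2f8 knockout replicate 1 or E2f7/E2f8 knockout replicate 3, with adjusted p up to 0.0572.

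Signalling genes made up the rest of the named rises. Dusp23, a small phosphatase, rose by 0.73 (SE 0.16), Tgfbr2, the type II receptor of TGF-beta, by 0.60 (SE 0.14), and Plce1, a phospholipase C, by 0.58 (SE 0.11). In Tgfbr2 the E2f8 knockout had the low arrays, 7.31 to 7.77, against 8.00 to 8.33 in the E2f7/E2f8 knockout and 8.36 to 8.47 in the wild type. Its call was kept only without E2f8 knockout replicate 1 or 2 or E2f7/E2f8 knockout replicate 4 (adjusted p up to 0.107). Other, dimmer probe sets of Tgfbr2 differed by 0.25 and 0.10 and were not called. Dusp23 lost its call without E2f8 knockout replicate 3 or E2f7/E2f8 knockout replicate 2 (up to 0.0842), and Plce1 without E2f7/E2f8 knockout replicate 1 (0.0552).

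Among the falls, Mndal, of the interferon-inducible family, was lowest relative to the E2f8 knockout. Its signal was 2.76, 2.84, 3.43 and 2.92 in the E2f7/E2f8 knockout and 6.35, 7.03, 6.38 and 6.15 in the E2f8 knockout, 11.2-fold lower in the former (-3.49 log2, SE 0.69, adjusted p = 0.0121). A second probe set fell by 3.16. Wild-type arrays read 5.81, 7.16 and 2.81, so that replicate 3 of the wild type lay with the E2f7/E2f8 knockout. Mndal has close relatives, and its brighter probe set is of a kind that can cross-hybridise, so the share of each relative is uncertain.

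Ildr2, an immunoglobulin-like membrane receptor, fell 5.73-fold (-2.52 log2, SE 0.32, adjusted p = 6.75e-05), from 8.94, 8.89, 9.27 and 8.77 to 7.11, 6.67, 6.06 and 5.95. Wild-type arrays read 7.04 to 8.68, below every E2f8 knockout array, and the lowest of them lay within the range of the E2f7/E2f8 knockout. Its 2 other probe sets differed by -1.82 and -0.54, the first called and the second not (adjusted p = 0.358 over all probe sets).

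Gdpd3, a lysophospholipase D, fell by 1.86 (SE 0.34, adjusted p = 0.00602), from 8.89, 7.24, 8.34 and 8.09 to 6.20, 5.89, 6.72 and 6.29. Slc30a10, the manganese exporter, fell by 1.06 (SE 0.20, adjusted p = 0.00668), from 9.21, 8.89, 8.70 and 8.48 to 8.08, 7.83, 7.62 and 7.51. Here the E2f8 knockout was the high group, since wild-type arrays read 7.39 to 7.52. A second Slc30a10 probe set fell by 1.04.

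Gstk1, a glutathione transferase of mitochondria and peroxisomes, fell by 0.83 (SE 0.16, adjusted p = 0.0116), from 11.52, 11.42, 11.81 and 11.79 to 10.72, 10.64, 11.03 and 10.83. The E2f7 knockout arrays lay at 11.68 to 11.82 with the E2f8 knockout, and of the wild type only replicate 3, at 11.01, lay within the range of the E2f7/E2f8 knockout. Usf1, a transcription factor that binds E-boxes, fell by 0.55 (SE 0.10), with 5.97 to 6.12 against 6.54 to 6.62. One of its 2 other probe sets also fell, by 0.72, and the dimmest differed by 0.09.

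Of the remaining named falls, Cbs, which condenses homocysteine with serine, fell by 0.64 (SE 0.11) and Dpp9, a cytosolic peptidase, by 0.50 (SE 0.07). Fam210b, a mitochondrial membrane protein gene, fell by 0.44 (SE 0.08) and Tspyl4 by 0.71 (SE 0.10). A second, dimmer probe set of Tspyl4 differed by 0.29 in the other direction, and the mean of its probe sets was not called (adjusted p = 0.331). In all 4 genes the E2f7/E2f8 knockout arrays overlapped the wild-type arrays, and the E2f8 knockout stood above. Cfhr2, related to complement factor H, fell by 0.68 (SE 0.14), a value that its near-identical relatives can share. A second, dimmer probe set of Cfhr2 differed by -2.04. Mad2l2, a subunit of translesion DNA polymerase zeta, fell by 0.67 (SE 0.14), the tetraspanin Cd9 by 0.65 (SE 0.16), the dehydrogenase Sdr9c7 by 1.02 (SE 0.22) and Erdr1 by 0.89 (SE 0.20). A second, dimmer probe set of Erdr1 differed by -0.01 (limma adjusted p = 0.973 over all probe sets). Cd9 kept its call only without E2f8 knockout replicate 1 or E2f7/E2f8 knockout replicate 4, with adjusted p up to 0.143. Sdr9c7 lost it without replicates 3 or 4 of the E2f8 knockout or replicates 2 or 3 of the E2f7/E2f8 knockout (up to 0.103). Erdr1 lost it without E2f8 knockout replicate 1 or any of E2f7/E2f8 knockout replicates 1 to 3 (up to 0.118). Cfhr2 and Mad2l2 lost theirs without E2f7/E2f8 knockout replicates 3 and 2, at 0.0668 and 0.0720.

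**Figure D1:**
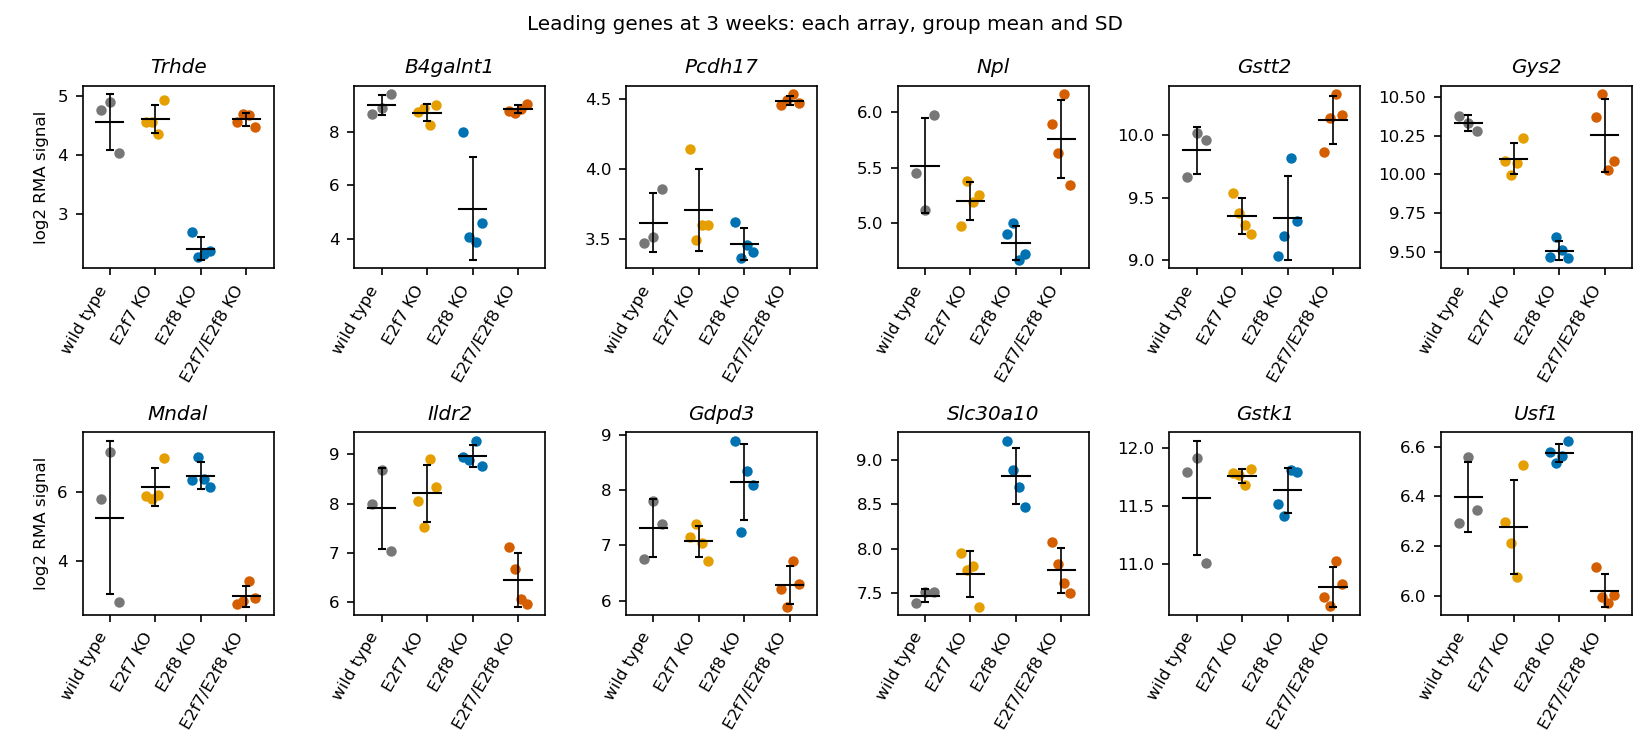
Log2 RMA signal of 12 leading genes on every array at 3 weeks, by genotype (3 wild-type arrays and 4 of each knockout; KO, knockout), with the group mean as a horizontal line and the SD as a bar; each vertical axis has its own range and does not start at 0. Trhde and B4galnt1 are low in the E2f8 knockout, with E2f7/E2f8 knockout arrays at the wild-type level, Pcdh17 is high in the E2f7/E2f8 knockout, and 1 wild-type array of Mndal and of Gstk1 lies with the low group.

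Where the 126 genes stood relative to the reference groups was counted from the group means. The E2f7/E2f8 knockout mean was nearer the wild-type mean than the E2f8 knockout mean was in 78 of the 126 genes, against 49.2% of all genes. It was nearer the E2f7 knockout mean in 86, against 56.0% of all genes, and nearer to both references in 66, against 33.8%. The E2f8 knockout was nearer to both in 28, against 28.6%. These counts reuse the arrays that chose the genes and carry no test.

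Lists of cell cycle genes, on which atypical E2F proteins are known to act, held 0 called members in this comparison. The lists were written from general knowledge, with earlier results of these data known, and do not hold every such gene. Wee1, a kinase of entry into mitosis that stands in the clock list, was called. Called genes in none of the lists included Pds5a, a regulator of cohesin, and Mad2l2, a subunit of translesion DNA polymerase zeta. Of 46 DNA replication and licensing genes 28 were higher and 18 lower, with a median of 0.04, and of 54 mitosis genes 33 were higher, with a median of 0.03. Over all genes 53.6% were higher, with a median of 0.01. The smallest p-values among the replication genes belonged to Uhrf1, a maintenance methylation cofactor, at 0.70 (SE 0.29, adjusted p = 0.286), and the origin licensing factor Cdc6 at 0.47 (SE 0.20, adjusted p = 0.302). Nucleotide synthesis genes had a median of 0.11 with 11 of 16 higher, G1/S control genes 0.02 with 12 of 18, repair genes 0.04 with 13 of 19, and cytokinesis and polyploidy regulators -0.04 with 6 of 15. None of these 4 lists had a called member either, nor had the p53 targets (median -0.06, 8 of 23 higher). Cdkn1a, the p21 inhibitor of cyclin-dependent kinases, was at -1.02 (SE 0.41, adjusted p = 0.267). These 7 lists held 190 different genes, of which 14 (7.37%) had an unadjusted p under 0.05, against 13% of all genes. At 0.693% called among all genes, 0 calls among 190 genes is near the background.

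Of the 35 lists 8 had a called member. In all they held 624 different genes, of which 10 were called (1.6%, against 0.693% of all genes). The lists were chosen with earlier results of these data known, so that share is a description and carries no test. B4galnt1 and Npl were the called members of 17 sialic acid and ganglioside genes (median 0.08). Cholesterol synthesis genes had 15 of 16 members higher and a median of 0.22, with 0 called; the smallest p-values were those of Lss, lanosterol synthase, at 0.39 (SE 0.20, adjusted p = 0.407) and of Dhcr7, which makes cholesterol in the last step, at 0.40 (SE 0.21, adjusted p = 0.414). Fatty acid and triglyceride synthesis genes had a median of 0.17 with 12 of 18 higher and 0 called, and the same genes were higher in 0 of 18 at 2 months, with a median of -0.42. Gys2 was the called member of 21 genes of gluconeogenesis, glycolysis and insulin response (median -0.02). Among 21 bile acid genes (median 0.00) Fgfr4, the receptor for the gut signal FGF15, fell by 0.38 (SE 0.09, adjusted p = 0.0398), a call lost with the 3-week arrays alone (0.115). Among 22 xenobiotic genes Gstt2 rose and Cyp3a44 fell by 0.71 (SE 0.15, adjusted p = 0.0211), with overlapping groups and close relatives among the Cyp3a genes. The call of Cyp3a44 was lost with the 3-week arrays alone (0.207).

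Genes that differ between the sexes in adult liver gave 2 calls, Cyp3a44 and Sult3a1. Sult3a1, a sulfotransferase of the female-biased list, fell by 3.18 (SE 0.74, adjusted p = 0.0358), from 7.07, 8.61, 9.26 and 10.23 to 3.87, 4.38, 5.68 and 8.50. The highest array of the E2f7/E2f8 knockout lay within the range of the E2f8 knockout. The call was lost with the 3-week arrays alone (adjusted p = 0.141). Of 11 female-biased genes 3 were higher and 8 lower (median -0.15). The higher ones were Cyp2b9 (3.51), Cyp2b13 (1.20) and Cyp17a1 (0.12), none of them called. Of 14 male-biased genes 3 were higher, with 0 called (median -0.13).

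Stress lists gave 0 calls and the clock list 1. Unfolded protein response genes were lower in 17 of 22 (median -0.16, 0 called), whereas 19 of 22 were higher at 2 months (median 0.28, 0 called). Heat shock genes had a median of 0.13 with 11 of 14 higher; Hspa1b stood at 1.45 (SE 0.42, adjusted p = 0.109). Of 20 clock genes 15 were higher (median 0.16), and Wee1, the kinase that holds back CDK1 and is also under clock control, rose by 0.67 (SE 0.16, adjusted p = 0.0488). That call was lost with the 3-week arrays alone (0.187). Of 21 amino acid response genes only Shmt2 was called (median -0.01).

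Lists of cell types other than hepatocytes gave 1 call. In whole liver RNA, fewer cells of a type and less RNA per cell cannot be told apart. Macrophage and Kupffer cell markers were higher in 17 of 19 (median 0.16, 0 called), with a mean signal per array of 7.71 to 7.85 in the E2f7/E2f8 knockout and 7.23 to 7.94 in the E2f8 knockout, so the arrays overlapped. Erythroid markers were higher in 14 of 15 (median 0.16), and Rhag, a red cell membrane protein, rose by 0.28 (SE 0.06, adjusted p = 0.0170). Their mean signal was 5.83 to 6.01 and 5.72 to 5.77 in the respective groups, with no overlap. Cholangiocyte markers (median 0.09, 0 called) did not overlap either, at 4.78 to 4.82 and 4.68 to 4.72. Nor did the array means of 2 lists that are not of cell types, PPAR alpha targets (lower) and sialic acid and ganglioside genes (higher). The call of Rhag was lost without E2f7/E2f8 knockout replicate 1 or 3 (up to 0.0733) and with the 3-week arrays alone (0.131). Fetal liver genes were higher in 11 of 13 (median 0.14, 0 called). MHC class II genes had a median of -0.29 with 4 of 6 lower, and sinusoidal endothelial markers one of -0.03 with 16 of 23 lower, with 0 called in either. The part of such cells in the results above was not tested.

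**Figure D2:**
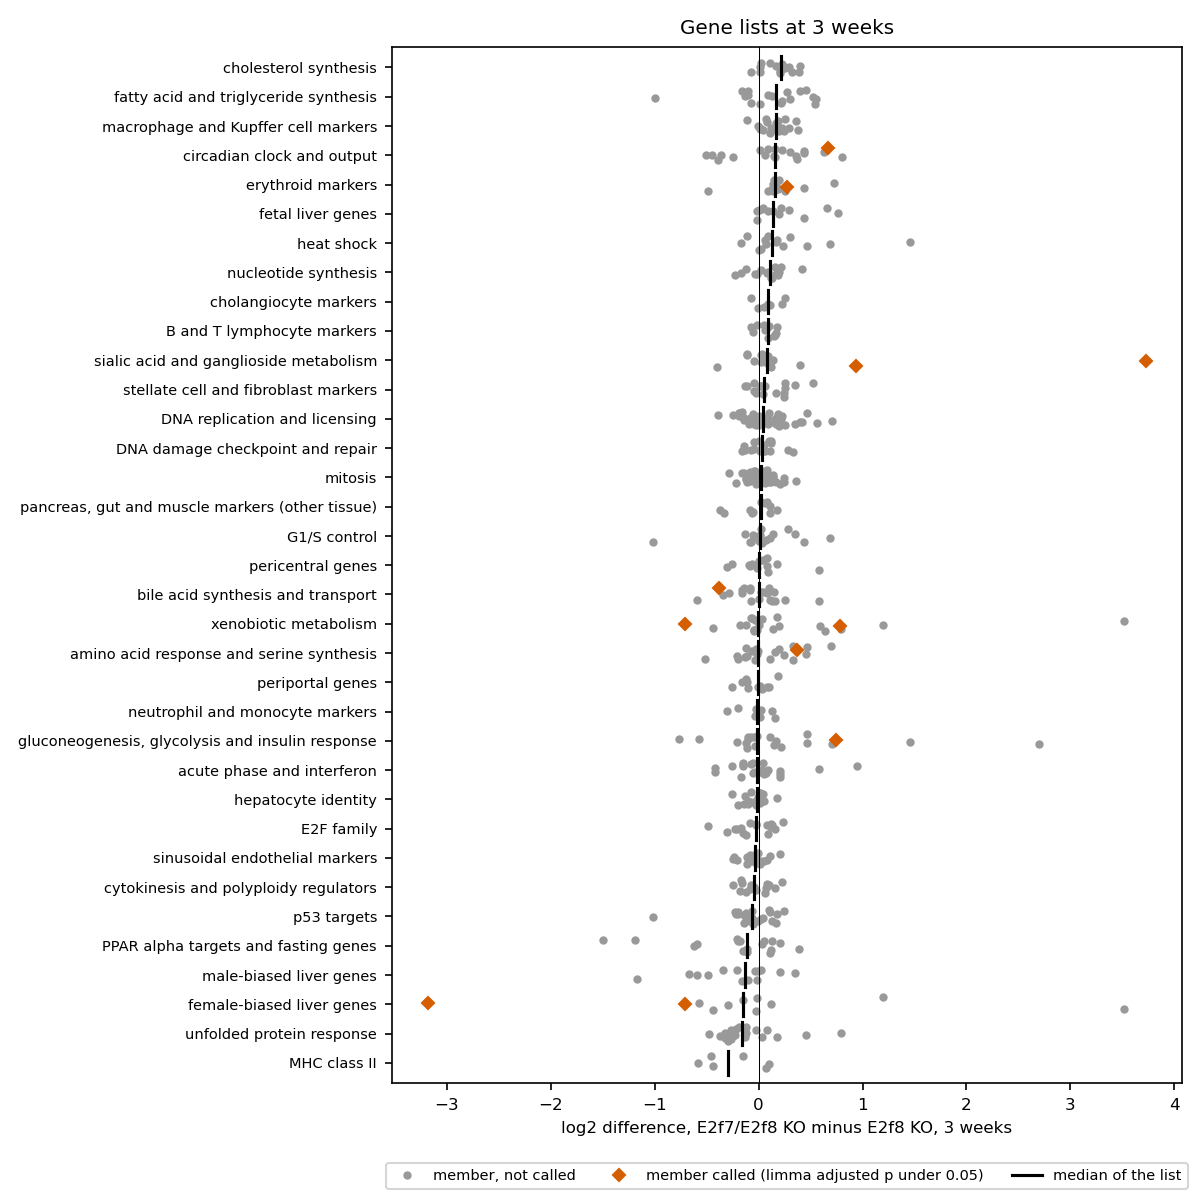
Log2 difference between the E2f7/E2f8 and the E2f8 knockout at 3 weeks (horizontal axis) for each measured member of the 35 lists (rows, ordered by median), with called members as diamonds, other members as grey points and the list median as a black bar. The medians lie between -0.29 and 0.22, and 8 lists hold a called member.

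The same contrast at 2 months used other arrays. There 116 genes were called (0.638%), 67 higher (0.368%) and 49 lower (0.269%). Both ages called 6 genes, which are 4.76% of the 3-week calls and 5.17% of the 2-month calls, all 6 in the same direction: B4galnt1, Trhde and Adamdec1 were higher, and Gdpd3, Gstk1 and Tcaf1 lower. Adamdec1, Tcaf1 and other genes outside the leading 30 that are not list members are named after their values were seen. The count at 2 months was 14, 63 or 74 without E2f8 knockout replicate 4, 1 or 2, and 35 or 50 without E2f7/E2f8 knockout replicate 1 or 3.

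Trhde stood at 5.96, 6.32, 5.94 and 6.11 in the E2f7/E2f8 knockout at 2 months and at 4.33, 4.24, 4.49 and 4.40 in the E2f8 knockout (1.72 log2, adjusted p = 1.25e-05). B4galnt1 read 9.65, 8.65, 9.53 and 8.32 against 8.50, 5.26, 4.68 and 5.40 (3.08 log2, adjusted p = 0.0119), so that replicate 1 of the E2f8 knockout was again the high array of its group. Arrays at 3 weeks and 2 months had unlike distributions of values, so levels are not compared between the ages and only differences are set side by side. Gstk1 differed by -1.04 at 2 months, where replicate 4 of the E2f7/E2f8 knockout was the nearest to the other group at 11.61, and Gdpd3 by -1.39.

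Over the whole set the ages had less in common. Of the 126 genes 74 differed in the same direction at 2 months, against 53.7% of all genes, and their median size at 2 months was 0.08 log2. Across these 126 genes, which are not independent replicates, the 2 differences correlated at r = 0.60 and rho = 0.27. The largest 2-month rises were in the acute phase genes Saa2 (3.12) and Saa1 (2.96), B4galnt1, Igfbp1 (2.54) and Trhde, and the largest falls in Acot3 (-2.20), Sucnr1 (-1.87), Cyp26a1 (-1.80), Osbpl3 (-1.63) and Cyp2c38 (-1.49). At 3 weeks Saa2 and Saa1 differed by -0.15 and -0.06.

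The difference between the ages was tested as such and was called for 34 genes (0.187%), 19 higher (0.104%) and 15 lower (0.0824%) at 3 weeks relative to 2 months, of which 16 were among the 126. Pcdh17 rose at 3 weeks and differed by -0.07 at 2 months (difference 1.09, adjusted p = 0.00195). Gstt2 (1.30), Slc25a4 (0.98), Gys2 (0.91), Ak4 (0.89) and Gamt (0.78) were likewise more positive at 3 weeks, and Ildr2 (-2.33), Tspyl4 (-0.76), Cbs (-0.74), Dpp9 (-0.57) and Fam210b (-0.50) more negative. Of these 11 genes none was called at 2 months. Among the genes called in this test that were outside the 126, the 2 with the largest difference were the lipid transfer protein gene Osbpl3 (2.05), which was called at 2 months and not at 3 weeks, and the nuclear receptor gene Esrrg (1.80). The count was 17 without replicate 4 of the E2f8 knockout or replicate 1 of the E2f7/E2f8 knockout at 2 months, 20 without E2f8 knockout replicate 3 at 3 weeks and 63 without E2f7/E2f8 knockout replicate 4 at 3 weeks. The 3-week arrays formed a distribution of values apart from those of 2 months, and the labels name no run. Age and any normalization run therefore cannot be told apart in levels, while each contrast lies within 1 distribution.

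**Figure D3:**
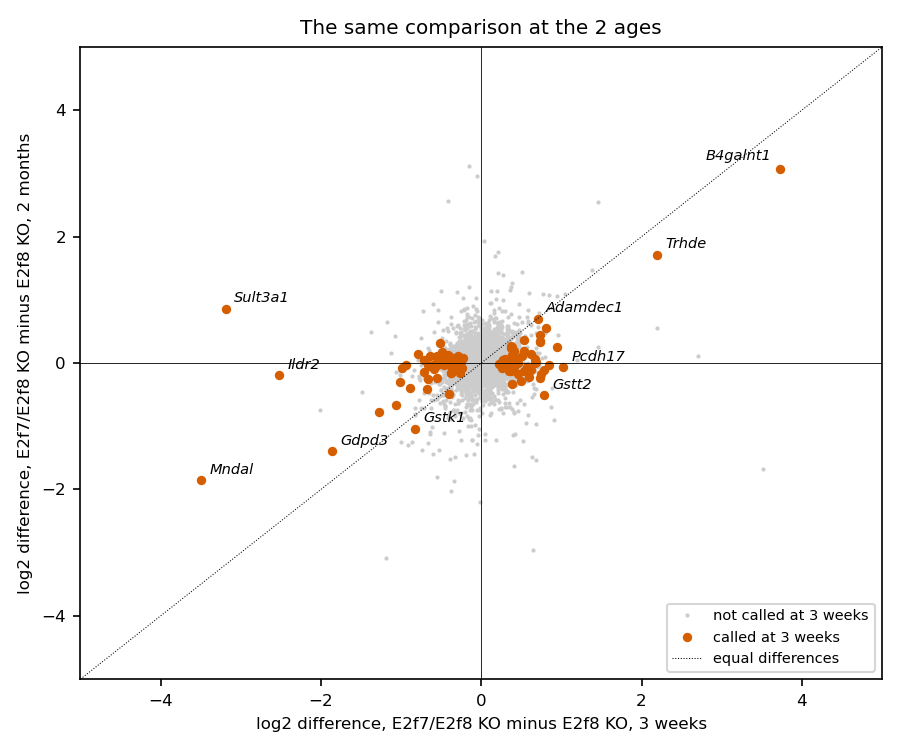
Log2 difference between the E2f7/E2f8 and the E2f8 knockout at 3 weeks (horizontal axis) and at 2 months (vertical axis) for 18193 genes, with the 126 genes called at 3 weeks in orange and equal differences as a dotted line. B4galnt1, Trhde, Gdpd3 and Gstk1 lie near the dotted line, and most orange points lie near 0 on the vertical axis.

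Whether loss of E2f7 had a like effect where E2f8 was present was examined with the E2f7 knockout and wild-type arrays at 3 weeks. The labels name Albumin-Cre for the E2f7 knockout and not for the wild type. Cre and loss of E2f7 therefore cannot be told apart in that comparison, nor in the difference of effects tested next. Of the 126 genes 0 were called in that comparison, in which limma called 8 genes in all (0.044%), 2 higher (0.011%) and 6 lower (0.033%), and 67 had the same direction, against 55.6% of all genes. Their median size there was 0.11 log2. Trhde differed by 0.04, B4galnt1 by -0.27 and Pcdh17 by 0.09. Mndal and Ephb6 had positive values, 0.89 and 0.74, where their values without E2f8 were -3.49 and -1.27. Both rest on wild-type replicate 3, without which Mndal was at -0.34 and Ephb6 at 0.26.

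The effect of E2f7 loss without E2f8 minus that with E2f8 was called for 23 genes (0.126%), 15 higher (0.0824%) and 8 lower (0.044%), and 15 of these were among the 126, with which the test shares its arrays. Trhde (2.14, SE 0.29, adjusted p = 0.000398), Gstt2 (1.31), Npl (1.25), Gys2 (0.97), Pcdh17 (0.93), Slc25a4 (0.86), Ak4 (0.83) and Kmo (0.79) were higher. Ildr2 (-2.82), Ephb6 (-2.01), Cfhr3 (-0.88), Pafah1b3 (-0.74), Tspyl4 (-0.69) and Dpp9 (-0.62) were lower. B4galnt1, at 4.00, was not called (adjusted p = 0.0661). Without wild-type replicate 3, Kmo, Tspyl4, Npl, Slc25a4, Cfhr3 and Pcdh17 lost their calls (adjusted p up to 0.206). Ephb6, at -1.53, was still called. Other single arrays mattered too. Without E2f7 knockout replicate 1, Kmo, Tspyl4, Slc25a4, Cfhr3 and Pafah1b3 lost their calls (adjusted p up to 0.127). Ak4 lost its call without E2f7 knockout replicate 3 (0.0854). Of the called genes named here, only Trhde, Gstt2, Gys2, Ildr2, Ephb6 and Dpp9 kept theirs whichever single array was left out. With only the 3-week arrays 2 genes remained called. The count was 8 or 14 without E2f7 knockout replicate 3 or 1, 10 without wild-type replicate 3 and 14 without E2f7/E2f8 knockout replicate 3.

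**Figure D4:**
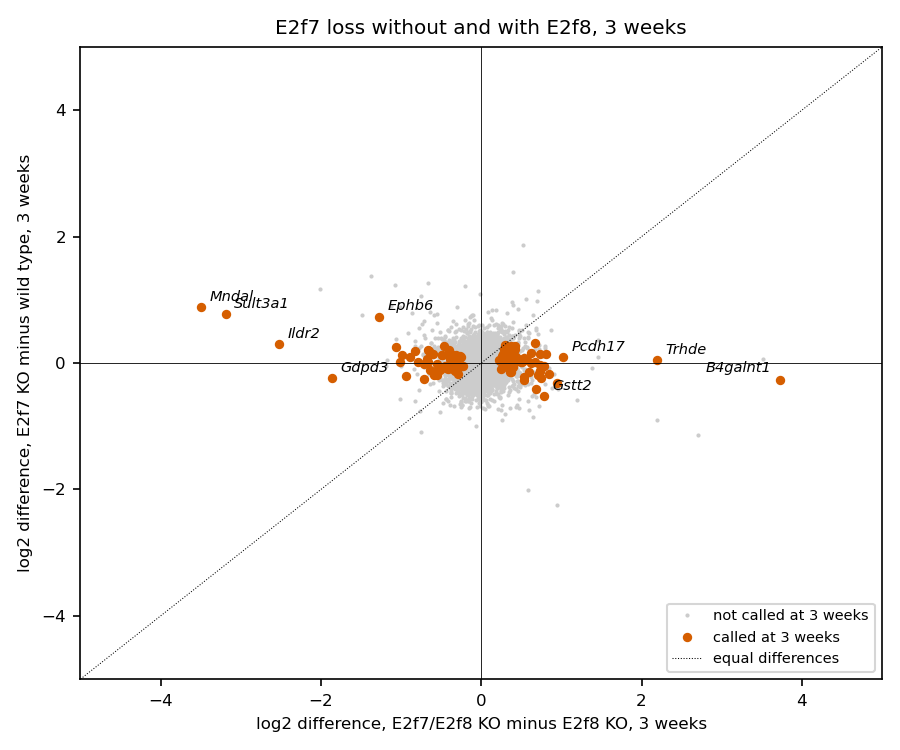
Log2 difference between the E2f7/E2f8 and the E2f8 knockout (E2f7 loss without E2f8, horizontal axis) and between the E2f7 knockout and wild type (E2f7 loss with E2f8, vertical axis) at 3 weeks for 18193 genes; the 126 genes called in the first are orange and the dotted line marks equal differences. Trhde, B4galnt1 and Gdpd3 lie far from 0 on the horizontal axis and near 0 on the vertical axis.

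The positions of the called genes were read from the order of tested genes along the chromosomes of the GRCm38 assembly. Chromosome 10, which carries E2f7, held 15 calls among 865 tested genes (1.73%) and chromosome 1 held 18 among 1066 (1.69%), against 0.693% overall and at most 0.834% on any other chromosome. At 2 months these 2 chromosomes had 0.578% and 0.188%, and the largest shares were those of chromosomes 6 (1.61%), 19 (1.31%) and 16 (1.17%), against 0.638% overall. Of the 10 calls past 1 log2, 4 were on chromosome 10 and 3 on chromosome 1. Trhde lay 15 tested genes from E2f7 and B4galnt1, Shmt2 and Sdr9c7 lay 97, 114 and 129 from it. Of the 60 tested genes nearest E2f7, 30 on each side, 1 was called at either age, Trhde. Of the 60 nearest E2f8, 0 were called at 3 weeks and 2 at 2 months.

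Some called genes lay near each other. Of the 126 genes 48 (38.1%) were within 30 tested genes of another call, in 20 groups, against 31.6% of the genes that were not called, a share near the background. On chromosome 6, Ephb6, Gstk1 and Tcaf1 all fell, with Gstk1 8 tested genes from each of the other two. Ephb6 read 4.29, 3.96, 3.96 and 4.37 in the E2f7/E2f8 knockout and 5.02, 5.26, 5.66 and 5.71 in the E2f8 knockout. Its wild-type arrays read 5.11, 5.19 and 3.72, so that replicate 3 of the wild type was low, as for Gstk1 and Mndal. On chromosome 1, Ppox, Usf1, Dusp23, Mndal and Kmo formed a run of both directions, and on chromosome 10 Sult3a1, Rsph4a and Tspyl4 all fell. Neighbours of 1 gene family or a shared promoter were also among them, Col4a3 with Col4a4 (0.68 and 0.84) and Cfhr2 with Cfhr3 (-0.68 and -0.67). These positions were looked at after the values were seen and carry no test.

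**Figure D5:**
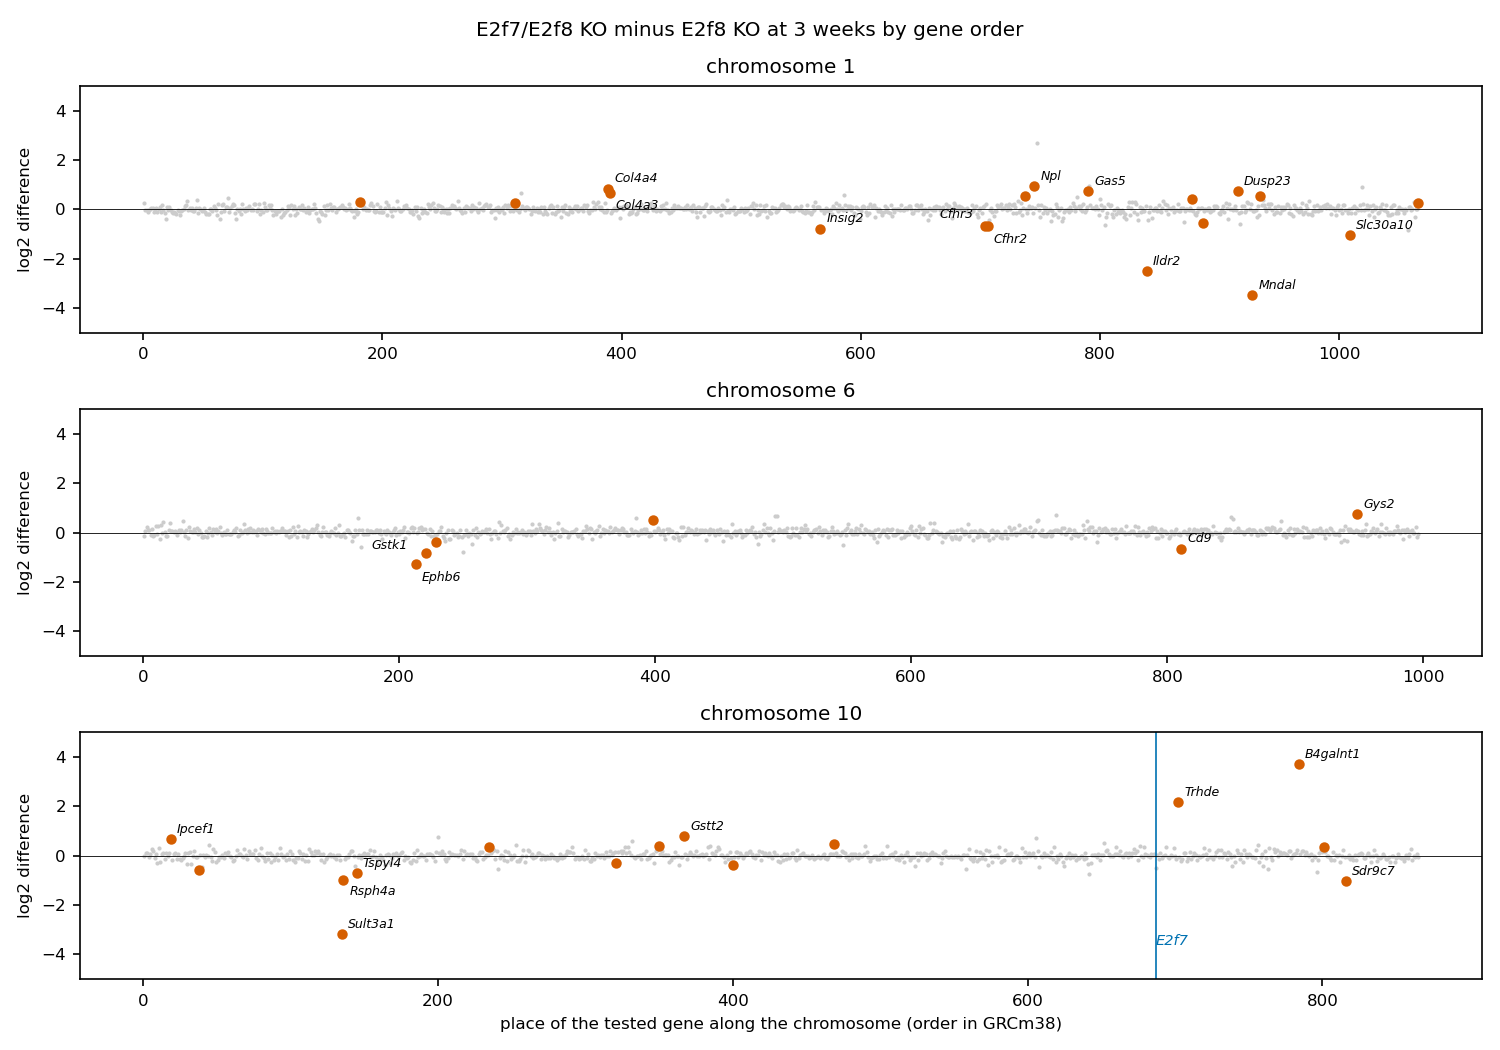
Log2 difference between the E2f7/E2f8 and the E2f8 knockout at 3 weeks by place among the tested genes of chromosomes 1, 6 and 10, with called genes in orange, other genes in grey and E2f7 as a blue line. Trhde stands 15 tested genes from E2f7, and Ephb6 and Gstk1 are neighbours on chromosome 6.

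Promoter sequences were searched for the sites that E2F proteins are known to bind. RefSeq sequences of GRCm38.p6, 250 bases before the start, were at hand for 99 of the 126 called genes. The 3 motifs were TTCCCGCC, TTTCCCGC and TTTGGCGC, sought on both strands, of which the first and second can overlap each other. At least 1 was found in 7 of 45 genes that fell (15.6%), 4 of 54 that rose (7.41%) and 677 of 14452 tested genes (4.68%). A match is a description and not a shown binding site. The following promoters of genes that fell and of genes that rose are shown because they hold a motif, in capitals, in the direction of the gene; GGCGGGAA and GCGCCAAA are the motifs as read on the opposite strand.
Pds5a (chr5:65698237-65698486, minus strand): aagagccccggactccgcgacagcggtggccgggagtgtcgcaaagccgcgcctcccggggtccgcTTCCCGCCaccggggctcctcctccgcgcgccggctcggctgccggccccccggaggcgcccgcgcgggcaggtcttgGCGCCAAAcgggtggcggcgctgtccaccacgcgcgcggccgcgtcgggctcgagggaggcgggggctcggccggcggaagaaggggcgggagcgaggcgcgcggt
Fam210b (chr2:172345327-172345576, plus strand): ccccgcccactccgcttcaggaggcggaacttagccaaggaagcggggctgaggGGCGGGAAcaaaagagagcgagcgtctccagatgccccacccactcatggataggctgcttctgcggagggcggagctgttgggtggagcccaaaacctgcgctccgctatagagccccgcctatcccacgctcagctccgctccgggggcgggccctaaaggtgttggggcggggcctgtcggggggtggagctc
Insig2 (chr1:121328025-121328274, minus strand): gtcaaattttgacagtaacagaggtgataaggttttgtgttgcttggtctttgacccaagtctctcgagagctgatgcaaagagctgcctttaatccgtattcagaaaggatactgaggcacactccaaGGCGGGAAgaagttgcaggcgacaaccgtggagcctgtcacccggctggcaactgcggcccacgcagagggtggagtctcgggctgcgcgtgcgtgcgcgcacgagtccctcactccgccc
Pcsk6 (chr7:65861886-65862135, plus strand): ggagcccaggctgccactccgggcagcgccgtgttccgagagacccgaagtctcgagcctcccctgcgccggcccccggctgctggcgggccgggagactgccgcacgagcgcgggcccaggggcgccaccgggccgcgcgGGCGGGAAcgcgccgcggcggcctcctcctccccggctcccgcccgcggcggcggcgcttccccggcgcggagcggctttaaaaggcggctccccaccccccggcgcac
Plce1 (chr19:38523947-38524196, plus strand): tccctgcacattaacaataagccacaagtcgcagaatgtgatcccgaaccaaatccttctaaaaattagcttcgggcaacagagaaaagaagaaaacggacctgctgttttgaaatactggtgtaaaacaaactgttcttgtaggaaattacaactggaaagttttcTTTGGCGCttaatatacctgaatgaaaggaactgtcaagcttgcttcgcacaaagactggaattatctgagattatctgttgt

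Pds5a, a regulator of cohesin, holds the pair TTCCCGCC and GCGCCAAA, and its expression fell by 0.38 (SE 0.07), with 7.04 to 7.20 against 7.34 to 7.56. Fam210b holds its motif 189 bases before the start. Insig2, which keeps the sterol sensor SCAP in the endoplasmic reticulum, fell by 0.79 (SE 0.18), from 11.56, 11.88, 11.33 and 11.16 to 10.76, 10.42, 10.92 and 10.71. Pcsk6, a proprotein convertase, rose by 0.80 (SE 0.17), from 7.50, 7.94, 7.70 and 7.53 to 8.78, 8.62, 8.20 and 8.28. Neither Insig2 nor Pcsk6 kept its call with only the arrays of the younger age in the fit. Plce1 holds TTTGGCGC 76 bases before its start. In all 5 genes the arrays of the 2 groups did not overlap, as in 106 of the 126 called genes, against 6.51% of all genes. Fam210b and Plce1 were named among called genes whose groups did not overlap, so for them this follows from the choice. The 5 are only some of the called genes that hold a motif.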

How the data were processed

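Liver RNA was hybridised to Affymetrix mouse arrays of 45101 probe sets. The authors deposited log2 probe set signals summarised with RMA, per the submitters' processing notes, which name no version. All 35 columns were matched to a sample by name, and 0 pairs shared more than 5% of their values exactly. An array has no depth of reads; the number of arrays limits the precision.

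Leaving out 64 control probe sets, 932 with several symbols and 9160 with none, the brightest probe set on average over the 35 arrays stood for its gene (34945 probe sets, 18193 genes). Sorted values of the 3-week arrays differed by 0.033 on average and by 0.787 from those of 2 months. Means of all 9 groups were fitted over the 35 arrays with limma 3.58.1 in R 4.3.3. The fit had 1 term for a second run at 2 months, an intensity trend and Benjamini-Hochberg adjustment over all genes (25 residual degrees of freedom). That run held 3 arrays of Mx1-Cre E2f1-/- E2f2-/- E2f3 loxp/loxp livers and wild-type replicates 4 and 5 of 2 months. It was found from the values, as the labels name no run. Genes were called at an adjusted p under 0.05. The script was tested on simulated data. Replicate numbers did not pair the samples: deviations of same-numbered arrays correlated at 0.02 to 0.18.

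The text names E2f1 to E2f8, then 15 rises and 15 falls. These were the largest of the called genes with groups that did not overlap, taking first those also called with 3-week arrays alone. It also names the called members of each list (at most 3) and the 5 largest rises and falls at 2 months. For lists without a call 2 members were picked as values, and the 5 largest each way were picked in the tests of differences. Only some of those are named. The genes, lists and tests were chosen with earlier results of these data known, as was the term for the run. Alternatives were 3-week arrays alone, only the groups compared, no run term, quantile normalization, no dim genes (lowest 40 percent), mean of probe sets, no trend, array weights, a replicate block and leaving out each array. Gene order, chromosomes and promoters came from RefSeq tables of GRCm38; 18143 genes were placed. Figures used matplotlib.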

Additional observations from a re-analysis of the deposited data

Results flagged for a closer look

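Among 60 groups of 4 arrays (the leading 30 genes in both knockouts), 3 had an array far from the others, where chance gives about 1 in 20: B4galnt1 in E2f8 knockout replicate 1 (7.988), Tspyl4 in E2f8 knockout replicate 4 (5.673) and Cbs in E2f8 knockout replicate 2 (11.91).

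Between the ages, the difference between the E2f7/E2f8 and the E2f8 knockout itself differed (limma, 3 weeks minus 2 months, log2) for Pcdh17 (1.094), Gstt2 (1.296), Ak4 (0.8874), Gys2 (0.912), Slc25a4 (0.9807) and Gamt (0.7754), and with negative sign for Ildr2 (-2.332), Tspyl4 (-0.7607), Cbs (-0.7442), Dpp9 (-0.5659) and Fam210b (-0.4995). Between the presence and absence of E2f8, the effect of E2f7 loss at 3 weeks differed (without minus with E2f8) for Trhde (2.144), Pcdh17 (0.9296), Npl (1.255), Gstt2 (1.313), Ak4 (0.8312), Gys2 (0.9734), Slc25a4 (0.861) and Kmo (0.7917), and with negative sign for Ildr2 (-2.822), Tspyl4 (-0.6947) and Dpp9 (-0.6213). The cause of these differences was not tested.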

How the results depend on the processing

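Counts of called genes moved between the alternatives, while 0 called genes among those named changed sign. Of 595 list medians under the alternatives 13 moved by more than the SD between arrays, 10 of them that of cholangiocyte markers (0.09, then 0.03 to 0.12). At 3 weeks, where the main count was 126, it was 32 without the run term, which leaves the 3-week differences as they are, 41 with 3-week arrays alone and 22 with only the groups compared, of which 32, 33 and 18 were among the 126. At 2 months the count of 116 became 56 without the run term, 75 with the mean of probe sets, 797 with array weights and 196 with only the groups compared. For the difference between the ages, 34 became 14, 21 and 144 without the run term, with the mean of probe sets and with array weights. For E2f7 loss without minus with E2f8, 23 became 1 without the run term, 2 with 3-week arrays alone and 2 with only the groups compared. Leaving out single arrays gave 61 to 192 at 3 weeks, 14 to 137 at 2 months, 17 to 63 between the ages and 8 to 31 without minus with E2f8. The replicate numbers do not pair the samples, and with them as a replicate block the 4 counts were 112 (97 of the 126), 137, 36 and 26. Other alternatives kept the 3-week count between 87 and 146. Of the leading 30 genes 13 were called in each of the other alternatives in which they were tested. Trhde, Pcdh17, Npl and Mndal were not tested in the alternative without dim genes. Why the counts moved was not tested. With 4 arrays a group, small differences are not measured well: the median SE was 0.09 log2.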

Other observations

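Some genes showed separate levels among arrays of 1 group, which were looked at after their values were seen. Cyp2b9 is a cytochrome P450 of the female-biased list. It read 9.11 and 9.93 on E2f8 knockout replicates 1 and 2 and 3.17 and 3.06 on replicates 3 and 4. The E2f7/E2f8 knockout arrays read 9.35 to 10.53 (3.51 log2, SE 1.01, limma adjusted p = 0.105). Rgs16, a regulator of G protein signalling, was at 2.70 (SE 0.72, adjusted p = 0.0720) with groups that did not overlap. Mndal at 2 months read 3.70, 3.78 and 3.75 on replicates 1 to 3 of the E2f7/E2f8 knockout and 6.48 on replicate 4, against 5.77 to 7.30 in the E2f8 knockout.

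A pair of neighbouring steps of tryptophan breakdown went in opposite directions: Kmo rose by 0.53, and Kynu, whose enzyme cleaves the product of Kmo, fell by 0.55 (SE 0.13, adjusted p = 0.0368). Other called genes outside the lists were Gas5, a non-coding RNA that hosts small nucleolar RNAs, which rose by 0.74, Sirt5, a mitochondrial desuccinylase, which rose by 0.54, and Ndrg1, which fell by 0.94.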
